A study of Mus musculus with 80 samples.

Results

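Acyl-CoA thioesterases were examined through 10 genes, Acot1, Acot2, Acot3, Acot4, Acot5, Acot7, Acot8, Acot11, Acot12 and Acot13, taken by name from 32764 genes with read counts. All 10 were present in the count tables. RNA had been sequenced from inguinal white adipose tissue (iWAT), brown adipose tissue (BAT), liver and muscle of wildtype (WT) mice, mice without FGF21 (FGF21 KO), mice without UCP1 (UCP1 KO) and mice without both (dKO), 5 libraries per tissue and genotype and 80 in all. The animals were males, on the C57BL/6J background, and the knockouts were homozygous and whole-body. The mice of every group were raised at 30 °C, and at an age of 10 to 12 weeks they were moved to room temperature and given a high-fat diet for 3 weeks. Food was taken away 2 to 3 hours before the tissues were collected. The comparisons asked how loss of UCP1, the uncoupling protein of brown fat, changed each tissue, and whether FGF21, a hormone made by stressed liver and fat, was needed for the change.

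Thioesterases split acyl-CoA into a free fatty acid and coenzyme A (CoA), and so act against the acyl-CoA synthetases that load fatty acids before oxidation or storage. The genes fall into groups by the compartment of the enzyme. Acot2 works in mitochondria and Acot13 (Them2) is found at them, Acot1 and Acot7 are cytosolic, Acot3, Acot4, Acot5 and Acot8 are peroxisomal, Acot11 (Them1) is the thioesterase of brown fat that is found at lipid droplets, and Acot12 hydrolyses acetyl-CoA in the cytosol of hepatocytes. Several of them, Acot1 foremost, are known targets of the fatty acid receptor PPAR alpha.

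Acot1 to Acot5 lie beside each other on chromosome 12 of GRCm38, from Acot2 (chr12:83987861-83993873) over Acot1 (chr12:84009490-84018371), Acot4 (chr12:84038379-84048601) and Acot3 (chr12:84052144-84060402) to Acot5 (chr12:84069325-84076020), all on the plus strand. Acot7 (chr4:152178134-152271855, plus strand) and Acot11 (chr4:106744555-106804998, minus strand) are on chromosome 4, Acot8 (chr2:164792765-164804882, minus strand) is on chromosome 2, and Acot12 (chr13:91741512-91786148, plus strand) and Acot13 (chr13:24817948-24831540, minus strand) are on chromosome 13. Acot1 and Acot2 are so alike that the reads of one could be lost or given to the other. Their coding sequences had 1180 identical bases of 1239 aligned (95.2%), whereas Acot1 shared 83.9% with Acot3, 83.8% with Acot5 and 76.6% with Acot4. The sequences below show what sets the mitochondrial enzyme apart: Acot2 has 123 coding bases that come before the start of Acot1, and the coding stretches that follow differ in few bases. Capitals mark the bases at which Acot1 and Acot2 differ, 13 of the first 120.
Acot2, first coding bases (chr12:83987902-83988024, plus strand): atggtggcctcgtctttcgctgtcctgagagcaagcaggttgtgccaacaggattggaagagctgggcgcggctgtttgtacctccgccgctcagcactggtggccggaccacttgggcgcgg
Acot1, start of the coding sequence (chr12:84009510-84009629, plus strand): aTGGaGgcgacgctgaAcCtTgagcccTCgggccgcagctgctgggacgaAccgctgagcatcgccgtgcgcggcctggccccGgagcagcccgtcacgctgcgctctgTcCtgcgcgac
Acot2, stretch aligned with it (chr12:83988025-83988144, plus strand): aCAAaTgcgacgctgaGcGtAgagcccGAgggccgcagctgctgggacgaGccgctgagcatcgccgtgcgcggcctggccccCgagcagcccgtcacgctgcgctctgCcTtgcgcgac
Of all stretches of 100 transcript bases, the read length of the study, 17.1% of those of Acot2 and 12.4% of those of Acot1 also occurred in another gene. Whether such reads were counted depends on the mate of the pair and, for genes on opposite strands, on the strand setting. The share was 15.9% for Acot3, 8.24% for Acot4 and 7.79% for Acot5, with an annotated gene, Gm49366, running through Acot3 and Acot4 on the same strand and an antisense RNA, 4732463B04Rik, on the other. It was 7.14% for Acot8, which overlaps Snx21, and 13.8% for Acot11, which overlaps Fam151a, both on the opposite strand. It was 1.57% for Acot12 and 0 for Acot7 and Acot13.

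Promoters of 9 of the 10 genes could be matched by symbol to RefSeq (GRCm38.p6). Those of Acot11, Acot2 and Acot12 are shown because these transcripts had no overlap between UCP1 KO and WT in iWAT, as described below. The share of all genes without overlap was not computed for this or any other comparison. Each line gives the 250 bases before the start. Capitals mark the best match, with no more than 2 mismatches, to 2 copies of AGGTCA separated by 1 base, the pattern that PPAR receptors are known to bind, and of the 3 promoters Acot12 alone has one.
Acot11 (chr4:106805008-106805257, minus strand): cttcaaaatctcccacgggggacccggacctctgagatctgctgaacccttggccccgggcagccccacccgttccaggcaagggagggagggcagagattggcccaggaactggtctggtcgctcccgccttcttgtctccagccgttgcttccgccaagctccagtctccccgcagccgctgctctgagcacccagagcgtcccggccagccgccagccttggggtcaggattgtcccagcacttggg
Acot2 (chr12:83987611-83987860, plus strand): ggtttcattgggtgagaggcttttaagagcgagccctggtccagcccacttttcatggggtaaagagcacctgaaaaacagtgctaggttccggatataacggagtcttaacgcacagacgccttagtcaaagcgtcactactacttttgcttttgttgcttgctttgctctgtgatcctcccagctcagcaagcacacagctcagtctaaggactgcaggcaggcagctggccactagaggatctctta
Acot12 (chr13:91741271-91741520, plus strand): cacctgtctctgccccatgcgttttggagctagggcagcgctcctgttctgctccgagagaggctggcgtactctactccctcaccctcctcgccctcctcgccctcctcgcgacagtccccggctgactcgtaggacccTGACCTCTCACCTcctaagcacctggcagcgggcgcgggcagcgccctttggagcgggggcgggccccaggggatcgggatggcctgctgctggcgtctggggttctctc
The search covered both strands of the 300 bases around each start. The Acot12 promoter held a match with 1 mismatch, beginning at position -110 on the minus strand, a quality that 0.554% of 32851 promoters reached. The Acot4 promoter had 2 mismatches, which 3.86% of promoters reached, those of Acot2, Acot3, Acot5 and Acot11 had 3 at best, those of Acot1 and Acot7 had 4 and that of Acot8 had 5. The single copy AGGTCA, or TGACCT on the other strand, was present in the Acot3, Acot4, Acot5 and Acot12 promoters and in 16.3% of all promoters. A match is a run of letters and not a measured binding site.

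The libraries had about 28690000 to 50380000 reads counted on genes. Levels are given as CPM, the usual per-library scaling of counts, by the total count and a TMM factor, and a gene was called at an adjusted p under 0.01. Fgf21 had 0 to 3 counts in every library of FGF21 KO and dKO mice, against 23 to 1728 in iWAT and BAT of UCP1 KO. In WT it had 2 to 11 counts in iWAT, 7 to 10 in BAT and 51 to 107 in liver. In iWAT, FGF21 KO had 0 to 1 counts, close to the lowest of WT. In muscle WT had 0 to 3 counts and UCP1 KO 0 to 10, so that Fgf21 counts do not check the labels of muscle. Ucp1 reads remained in UCP1 KO, at 24291 to 60779 counts in BAT against 98548 to 216085 in WT and at 3942 to 20264 counts in iWAT against 109 to 776 in WT, so that Ucp1 counts do not check these labels. The labels of the dKO libraries name FGF12 in place of FGF21, but Fgf12 had 0 to 13 counts in iWAT of every genotype, and their Fgf21 counts were those of the FGF21 KO. Transcripts of neighbouring tissues were present in some libraries. Lymph node transcripts (7 markers such as Cd79a, mean log2 level over 4) were high in 9 of 20 iWAT libraries, 4 of FGF21 KO, 2 of WT, 2 of dKO and 1 of UCP1 KO, replicate 2. Skeletal muscle transcripts (10 markers) summed to 31.2 to 143 CPM in BAT of WT, 34.3 to 518 of FGF21 KO, 74.6 to 10620 of UCP1 KO and 113 to 5647 of dKO. In iWAT they reached 25760 CPM in UCP1 KO replicate 1, 12420 and 1146 CPM in WT replicates 5 and 4 and 5140 CPM in FGF21 KO replicate 5. The mean log2 level of hepatocyte transcripts was highest in iWAT of FGF21 KO replicate 4, although their summed level of 1170 CPM there lay within the range of the other iWAT libraries (340 to 3018 CPM), and in muscle of FGF21 KO replicate 5. These libraries are set beside Acot12 where that gene is described. The markers of the labelled tissue were present, with brown adipocyte transcripts (10 markers) at 4472 to 5417 CPM in WT BAT and hepatocyte transcripts (8 markers) at 93320 to 99630 CPM in WT liver.

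In WT mice Acot13 had the highest mean in all 4 tissues, and the order of the genes below it changed with the tissue. Levels between genes are compared here per length, as CPM per kb of exons, in 5 libraries each. Acot13 reached 143 ± 6.81 CPM per kb in BAT (SD), 112 ± 9.89 in muscle, 62.6 ± 9.49 in liver and 19.8 ± 1.42 in iWAT. This was 49.0% of the summed level of the 10 genes in BAT, 56.3% in iWAT, 44.9% in liver and 84.9% in muscle. The second transcript changed with the tissue. It was Acot11 in BAT, at 100.5 ± 28.7 CPM per kb and 34.4% of the sum, Acot12 in liver, at 52.4 ± 1.80 and 37.6%, and Acot7 in iWAT and muscle, at 7.59 ± 0.821 and 8.14 ± 0.947, or 21.6% and 6.16%. In liver the range of Acot12 (49.5 to 54.0 CPM per kb) overlapped with that of Acot13 (51.1 to 77.5), and this pair was not tested. Acot2 was the third transcript of BAT at 30.1 ± 2.97 CPM per kb. Acot3 and Acot5 were at or below 0.284 CPM per kb in every tissue, as was Acot12 outside liver, and Acot5 had no count in any of the 20 liver libraries, which allows up to 3 counts in each.

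**Figure D1:**
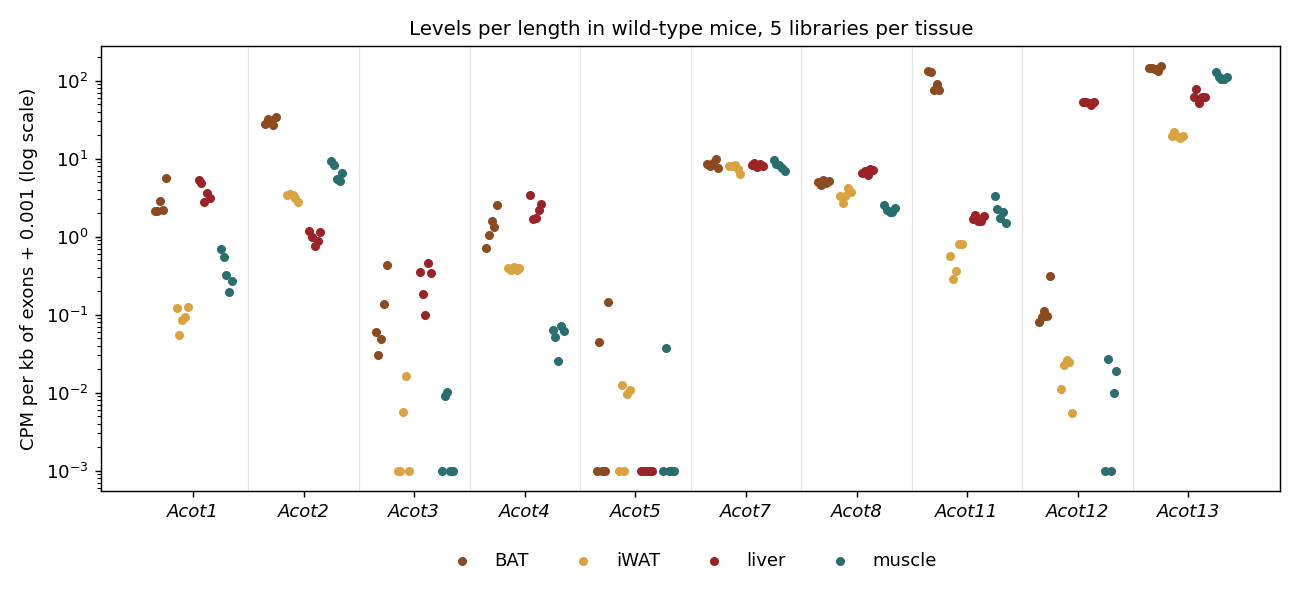
Level of each gene in WT mice, as CPM per kb of exons plus 0.001 on a log scale, with 1 point per library and 5 libraries per tissue. Mean levels are on the scale of TMM factors from the WT libraries of all tissues together. Acot11 in BAT and Acot12 in liver stand far above the same genes in the other tissues, whereas Acot7 is near 8 CPM per kb everywhere.

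Across the 4 tissues, 8 of the 9 genes that could be tested were called, in a comparison that called 95.6% of all genes (edgeR, 16886 genes). Acot7 was the exception, and its highest neighbours, BAT at 8.54 and liver at 8.26 CPM per kb, did not differ beyond their spread (log2 difference 0.05 ± 0.09 SE, adjusted p = 0.647). Pairs of tissues called 60.7% of all genes for iWAT against BAT, 74.9% for iWAT against liver, 74.4% for iWAT against muscle, 67.3% for BAT against liver, 64.1% for BAT against muscle and 73.8% for liver against muscle. The order of Acot11 was BAT, muscle, liver, iWAT, with 5.54 ± 0.31 on the log2 scale between BAT and muscle (adjusted p = 4.11e-12), no call between muscle and liver (0.33 ± 0.26, adjusted p = 0.248) and 1.61 ± 0.27 between liver and iWAT (adjusted p = 1.90e-05). Acot2 ran BAT, muscle, iWAT, liver, and each step was called, the first by 2.12 ± 0.15 (adjusted p = 9.53e-11). Acot12 was 8.54 ± 0.29 higher in liver than in BAT on the log2 scale (adjusted p = 1.01e-15), and its lowest tissues, iWAT and muscle, did not differ beyond their spread (adjusted p = 0.484). Acot13 ran BAT, muscle, liver, iWAT and Acot8 ran liver, BAT, iWAT, muscle, with every step called. Acot1, Acot3 and Acot4 were highest in liver and next in BAT, and none of the 3 differed between these beyond its spread at the threshold (adjusted p = 0.256, 0.148 and 0.0235). Acot5 did not pass the filter on low counts in WT and has no test here.

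In iWAT, loss of UCP1 was accompanied by a higher level of Acot11 and Acot2 when FGF21 was present, and by no called change when it was absent. Acot11, the brown fat thioesterase that restrains the use of fatty acids for heat, was at 5.51, 2.80, 3.64, 8.05 and 7.92 CPM in the 5 WT libraries. It was at 88.7, 85.7, 326.5, 286 and 378 CPM in UCP1 KO, at 8.82, 5.39, 16.4, 15.6 and 3.52 CPM in dKO and at 9.01, 4.64, 10.1, 7.86 and 7.57 CPM in FGF21 KO. All 5 UCP1 KO libraries lay above all 15 others, and the other genotypes overlapped. The log2 fold change of UCP1 KO against WT was 5.38 ± 0.56 (SE, adjusted p = 0.000148, edgeR), and against dKO it was 4.55 ± 0.54 (adjusted p = 0.000978). In these bulk samples more cells of a kind and more RNA per cell cannot be told apart. Brown adipocyte transcripts moved with it: their summed level was 772 to 3464 CPM in UCP1 KO, 340 to 533 in WT, 241 to 823 in dKO and 117 to 692 in FGF21 KO, with at most 1 of the 10 markers at 0 in a library. Their part in the level of Acot11 was not tested. The dKO libraries with the most Acot11, replicates 3 and 4, were also those with the most epithelial transcripts (6 markers), at 25.2 and 40.3 CPM against 0.738 to 6.65 CPM in the other 18 iWAT libraries, and this was not tested either.

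Acot2, the mitochondrial thioesterase, was at 12.2, 12.8, 12.4, 11.1 and 9.98 CPM in WT iWAT and at 36.7, 17.2, 72.1, 81.1 and 241 CPM in UCP1 KO. In dKO it was at 8.86, 13.7, 8.82, 13.4 and 9.86 CPM, and in FGF21 KO at 9.21, 14.8, 6.45, 9.40 and 7.36 CPM. UCP1 KO lay above all other libraries again, but its own libraries spread far more than those of any other genotype, and replicate 2, the UCP1 KO library with lymph node transcripts, was the lowest. The log2 fold change was 2.94 ± 0.49 against WT (adjusted p = 0.00363) and 3.04 ± 0.49 against dKO (adjusted p = 0.00394), and without UCP1 KO replicate 5, the highest library, these were 2.15 and 2.25 and still called. Acot11 and Acot2 were the called genes of the 9 tested, both higher, in the comparison with WT, which called 0.610% of all genes, and in that with dKO, which called 0.466%. With only the libraries of the genotypes compared in the fit, neither was called: the adjusted p was 0.0135 for Acot11 and 0.0507 for Acot2 against WT, and 0.0483 and 0.112 against dKO. Acot2 also lost the call against WT without any 1 of the WT libraries or without UCP1 KO replicate 4 (adjusted p from 0.0101 to 0.0184), and against dKO without UCP1 KO replicate 3 or dKO replicate 1, 2, 3 or 5 (adjusted p from 0.0104 to 0.0174) or with only the libraries of low lymph node level (adjusted p = 0.0151). Without UCP1 KO replicate 2, by contrast, Acot1 (adjusted p = 0.00346), Acot12 (0.0096) and Acot13 (0.00297) were called against WT as well, in a fit that called 360 genes of the whole table.

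Acot13, which hydrolyses long-chain acyl-CoA at mitochondria, was at 23.8, 26.8, 23.5, 22.6 and 23.9 CPM in WT iWAT and at 40.8, 24.6, 48.8, 51.3 and 59.8 CPM in UCP1 KO. In dKO it was at 15.9, 23.99, 16.9, 27.2 and 26.0 CPM. Replicate 2 of UCP1 KO fell among the WT libraries and the other 4 lay above them. The log2 fold change was 0.90 ± 0.22 against WT (adjusted p = 0.0325) and 1.03 ± 0.22 against dKO (adjusted p = 0.0192), neither called. In the test over the 4 genotypes, which called 1.74% of all genes, Acot13 was called (adjusted p = 0.00374) together with Acot2 and Acot11. With the lymph node level as a covariate, Acot13 was called against WT (0.69, adjusted p = 0.00283) and against dKO (0.91, adjusted p = 0.000623). That fit called 815 and 733 of all genes in these comparisons, against 106 and 81 without the covariate. The cytosolic Acot1 was at 0.346 to 0.799 CPM in WT and at 3.17, 0.516, 1.48, 1.58 and 4.24 CPM in UCP1 KO, and the change of 1.84 ± 0.45 on the log2 scale was not called (adjusted p = 0.0333). Acot7, the cytosolic thioesterase best known from brain, was at 21.9 to 28.5 CPM in WT and 21.5 to 31.6 CPM in UCP1 KO, and the 95% interval of the log2 difference ran from -0.37 to 0.34.

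**Figure D2:**
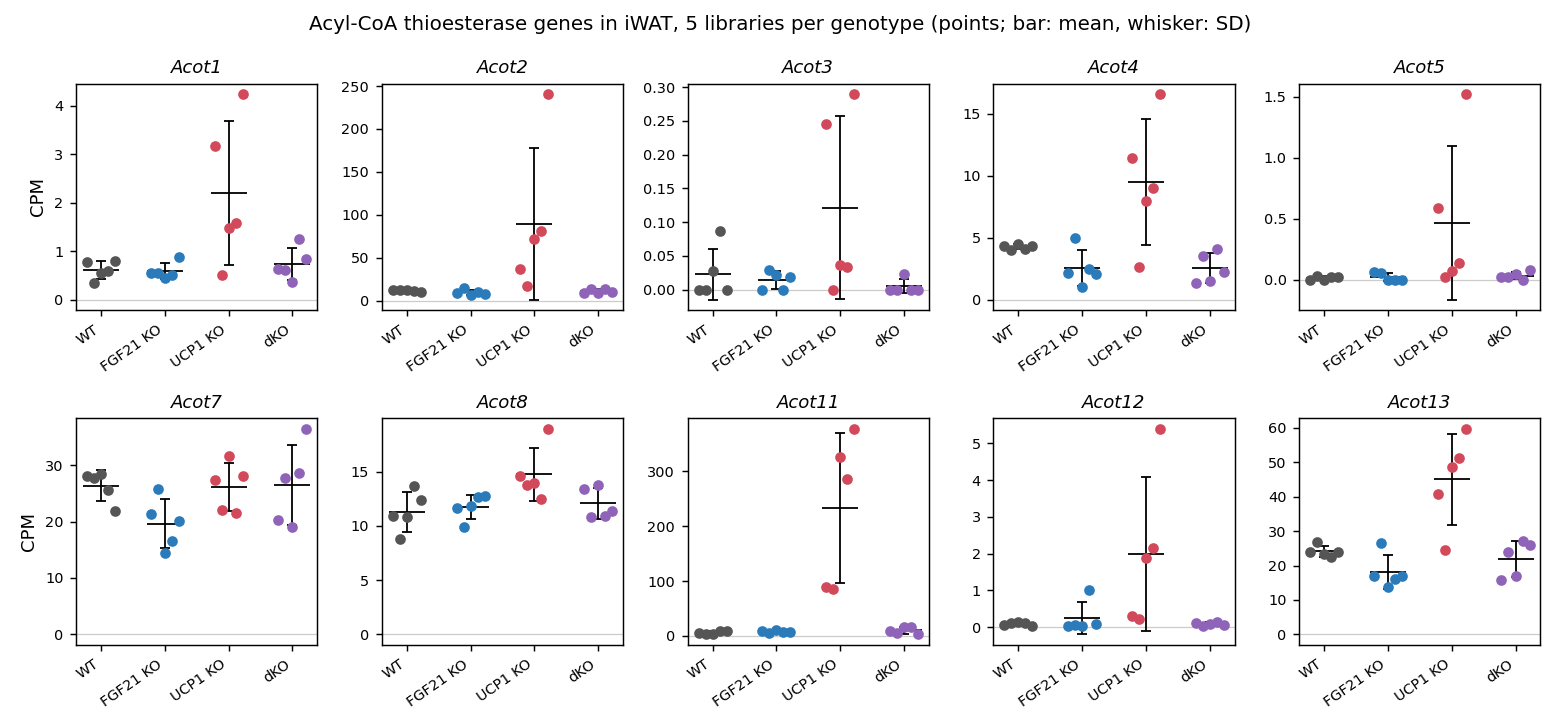
CPM of the 10 genes in iWAT, with 1 point per library, 5 libraries per genotype, the mean as a bar and the SD as a whisker. UCP1 KO libraries of Acot11 (85.7 to 378 CPM) and Acot2 (17.2 to 241 CPM) lie above all others, and the second UCP1 KO library is the lowest or next to lowest of its group in every panel.

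Among the peroxisomal genes of iWAT none was called. Acot4, which acts on succinyl-CoA and related dicarboxylic esters, was at 4.01 to 4.47 CPM in WT and at 11.4, 2.63, 7.93, 9.03 and 16.6 CPM in UCP1 KO, with replicate 2 below all WT libraries (1.16 ± 0.43, adjusted p = 0.184). Against dKO, at 1.31 to 4.09 CPM, its log2 fold change was 1.91 ± 0.44 (adjusted p = 0.0303), and with the lymph node level as a covariate it was called (1.69, adjusted p = 0.00207). That fit called 733 of all genes, against 81 without the covariate. Acot8 was at 8.74 to 13.6 CPM in WT and 12.5 to 18.96 CPM in UCP1 KO (0.38 ± 0.13, adjusted p = 0.146). Acot5 passed the filter on low counts only through UCP1 KO, so a difference in it was built into the selection. It had 0 or 1 count in each WT library and 19, 1, 2, 4 and 42 counts in UCP1 KO. The summed counts, 3 and 68, gave a ratio of 28.5 after scaling for depth with a 95% exact interval of 9.34 to 141 that covers counting error only, and the fit did not call the gene (adjusted p = 0.0360). Acot3 did not pass the filter, with 0 to 8 counts in each of the 20 libraries.

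Acot12, the acetyl-CoA thioesterase of liver, had 2, 4, 5, 6 and 1 counts in WT iWAT and 10, 9, 51, 64 and 149 counts in UCP1 KO, or 0.307, 0.232, 1.88, 2.16 and 5.40 CPM. It had 2 to 6 counts in each dKO library. The groups did not overlap, the ratio of the summed counts, scaled for depth, was 19.8 (12.3 to 33.8, counting error only), and the fit gave a log2 fold change of 4.39 ± 1.03 that was not called (adjusted p = 0.0302) and that was 3.59 without UCP1 KO replicate 5. The fit shares its estimate of spread over the 4 genotypes, and 1 library of another genotype, FGF21 KO replicate 4, had 49 counts or 1.02 CPM where the other 4 had 1 to 4 counts. Without that library Acot12 passes the filter on low counts only through UCP1 KO, so that its difference is built into the selection and its calls there are no support. That library also held the most Alb, the albumin transcript of hepatocytes, at 230 CPM against 15.7 to 104 CPM in the other 19 iWAT libraries, and its mean log2 hepatocyte level was 5.31 against 1.03 to 3.76. The ratio of Acot12 to Alb was 0.00194 in liver (median of 20 libraries), 0.00445 in that library and 0.000704 to 0.00160 in WT iWAT. In UCP1 KO iWAT it was 0.00883, 0.00708, 0.0324, 0.0222 and 0.107, above the ratio in liver in all 5 libraries. The ratio was also above that of liver in 3 of 5 dKO libraries (0.00164 to 0.00781 over the 5) and in 3 of 5 FGF21 KO libraries (0.000862 to 0.00445), and the highest dKO library lay above the lowest of UCP1 KO. In muscle the library with the most Acot12, FGF21 KO replicate 5 with 13 counts, was also that with the most Alb, 202 CPM. No hepatocyte marker was at 0 in any of these libraries. The part of hepatocyte RNA in the level of Acot12 was not tested.

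**Figure D3:**
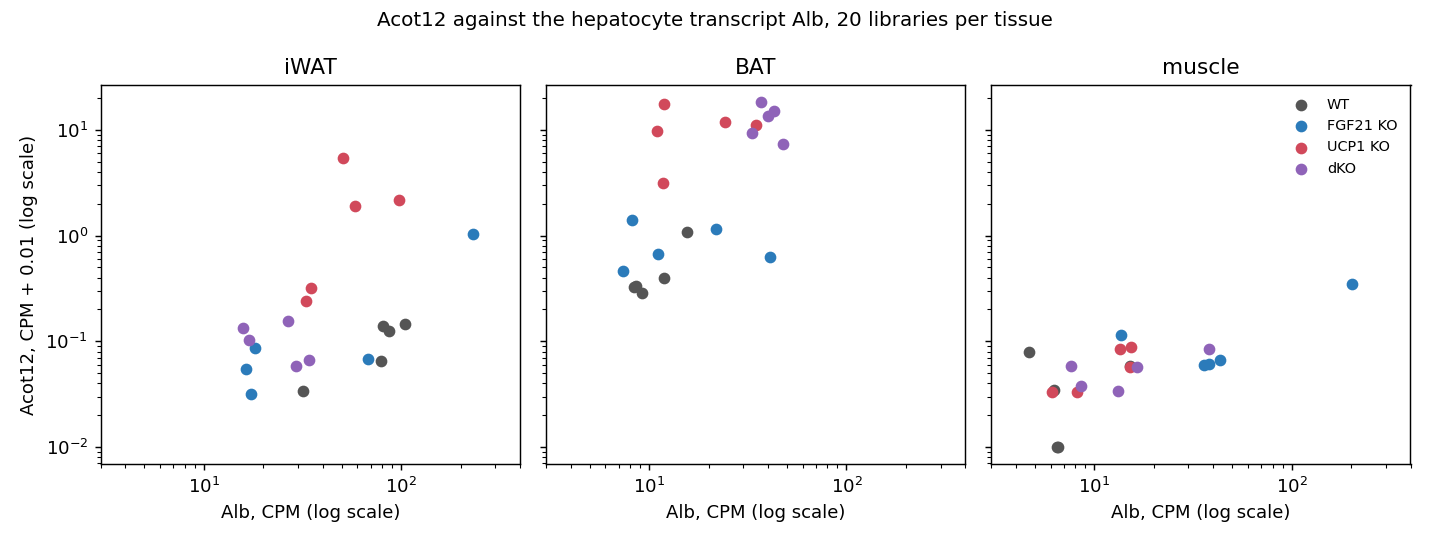
Acot12 (CPM plus 0.01) against Alb (CPM), both on log scales, in 20 libraries each of iWAT, BAT and muscle. The FGF21 KO library with the most Alb in iWAT and in muscle is the highest FGF21 KO library for Acot12. UCP1 KO libraries of iWAT and UCP1 KO and dKO libraries of BAT are high in Acot12 over a range of Alb levels. The part of hepatocyte RNA in these levels was not tested.

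Without FGF21, loss of UCP1 called none of the 9 genes in iWAT (dKO against FGF21 KO, 0.0115% of all genes called), with 1 at an unadjusted p under 0.05, as were 1499 of all 17380 genes, and 0 called by DESeq2. The log2 fold change of Acot11 was 0.34 with a 95% interval of -0.57 to 1.26, and that of Acot2 was 0.21 with -0.68 to 1.11. Loss of FGF21 alone likewise called none in edgeR or DESeq2 (FGF21 KO against WT, 0.00575% of all genes called), with 1 at an unadjusted p under 0.05, as were 3024 of all genes. The interaction of both losses called no gene of the whole table (0%), and none of the 9 genes was called, with 5, Acot5 among them, at an unadjusted p under 0.05, as were 1734 of the 17380. It was 5.04 ± 0.70 on the log2 scale for Acot11 (adjusted p = 0.0180, called without UCP1 KO replicate 1 or 2, at 0.00822 and 0.00684) and 2.72 ± 0.65 for Acot2 (adjusted p = 0.182). DESeq2 called Acot2, Acot11 and Acot12 in the interaction, among 62 genes of the whole table. For Acot12 the edgeR interaction was 5.76 ± 1.41, with dKO against FGF21 KO at -1.37. FGF21 KO replicate 4, the library with the most Alb and 49 counts of Acot12, enters both. For the 10 genes together the summed level per length was 162 ± 79.5 CPM per kb in UCP1 KO iWAT, 57.6 ± 1.92 in WT, 55.2 ± 10.1 in dKO and 45.6 ± 9.41 in FGF21 KO (SD, n = 5). These sums used the TMM factors of the iWAT libraries and are not on the scale of the WT levels per length given above.

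In BAT the pattern was another one: loss of UCP1 raised Acot2, Acot8 and Acot12 and lowered Acot13, with or without FGF21, while Acot11 was not called. Acot5 was called higher as well, but it passed the filter on low counts only through the genotypes without UCP1, so that its difference was built into the selection and its calls in the counts that follow are no support. UCP1 KO against WT called 6 of the 10 genes, 4 higher and 2 lower, where 25.2% of all genes were called. The comparison of dKO with FGF21 KO called 5, 4 higher and 1 lower, where 13.5% were called, and the test over the 4 genotypes called 5, where 29.7% were. DESeq2 called the same genes in each of the 3 comparisons, but the shares given are those of edgeR, and the shares of all genes called by DESeq2 are not given here. Transcripts of other cell types moved with these genes. Macrophage transcripts (6 markers) summed to 157 to 407 CPM in UCP1 KO, 117 to 146 in WT, 161 to 257 in dKO and 113 to 202 in FGF21 KO, and skeletal muscle transcripts were higher in many libraries without UCP1, as given above, with no marker of either list at 0 in any BAT library. The mean log2 level of general adipocyte transcripts (8 markers) was 8.62 to 9.34 in WT, 7.36 to 8.97 in UCP1 KO, 7.99 to 8.64 in dKO and 8.64 to 9.12 in FGF21 KO, with no marker at 0. The parts of macrophages and of adipocyte content were not tested. With the skeletal muscle level as a covariate Acot2, Acot5, Acot8, Acot12 and Acot13 were called in both comparisons. The share of all genes called in that fit is not given here.

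Acot2 was at 63.7, 73.9, 69.7, 62.9 and 79.2 CPM in WT BAT and at 322, 132, 257, 441.0 and 690 CPM in UCP1 KO. In FGF21 KO it was at 81.8, 89.4, 69.9, 73.1 and 59.9 CPM, and in dKO at 303, 160, 157, 245 and 234 CPM. Each group without UCP1 lay above both groups with it. The share of all BAT genes without overlap between such groups was not computed. The log2 fold change was 2.399 ± 0.30 with FGF21 (adjusted p = 1.18e-05) and 1.55 ± 0.30 without (adjusted p = 0.000976). Acot13 moved the other way. It was at 113, 112, 110, 105 and 120 CPM in WT and at 91.6, 70.7, 79.2, 85.8 and 78.3 CPM in UCP1 KO, and at 107 to 124 CPM in FGF21 KO and 73.6 to 92.0 CPM in dKO, with no overlap in either pair. Its log2 fold change was -0.47 ± 0.07 with FGF21 (adjusted p = 8.49e-05) and -0.46 ± 0.07 without (adjusted p = 0.000196).

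The peroxisomal Acot8, which acts on a broad range of chain lengths, was at 10.5, 9.79, 11.1, 10.2 and 10.8 CPM in WT BAT and at 22.9, 18.4, 20.6, 17.1 and 18.4 CPM in UCP1 KO. It was at 9.36 to 12.3 CPM in FGF21 KO and at 21.6, 22.9, 14.1, 13.5 and 25.4 CPM in dKO. Neither pair overlapped, and the log2 fold changes were 0.89 ± 0.15 (adjusted p = 0.000149) and 0.87 ± 0.15 (adjusted p = 0.000377). Acot5, also peroxisomal, had 0, 2, 0, 0 and 8 counts in WT and 112, 11, 16, 50 and 74 counts in UCP1 KO, a ratio of the summed counts, scaled for depth, of 18.3 (9.77 to 38.5, counting error only; adjusted p = 0.00111). The log2 fold change of 4.21 was 5.96 without WT replicate 5, which held 8 of the 10 WT counts, and 3.59 without UCP1 KO replicate 1. Between FGF21 KO, with 1 to 3 counts, and dKO, with 40, 56, 4, 37 and 46 counts, the ratio was 16.5 (8.51 to 36.7; adjusted p = 0.00382), although the lowest dKO library, at 0.0943 CPM, lay below the highest FGF21 KO library, at 0.104 CPM. Without FGF21 KO replicate 1 or 2 that second call was lost (adjusted p = 0.0129 and 0.0111). The other peroxisomal genes were not called. Acot4 was at 4.96 to 17.8 CPM in WT and 8.07 to 32.2 CPM in UCP1 KO, and Acot3 at 0.105 to 1.56 and 0.0611 to 1.80 CPM.

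Acot12 was at 0.274, 0.316, 0.385, 0.325 and 1.07 CPM in WT BAT and at 17.5, 3.12, 9.84, 11.03 and 11.9 CPM in UCP1 KO. In FGF21 KO it was at 0.615, 1.16, 0.452, 0.657 and 1.41 CPM, and in dKO at 15.2, 18.3, 7.33, 13.4 and 9.34 CPM. Again each group without UCP1 lay above both with it, at log2 fold changes of 4.46 ± 0.48 (adjusted p = 2.19e-06) and 3.89 ± 0.45 (adjusted p = 9.07e-06). These levels were still far below the 111 to 154 CPM of the 20 liver libraries. Alb was at 8.39 to 15.5 CPM in WT BAT, 11.02 to 34.7 in UCP1 KO, 7.39 to 40.8 in FGF21 KO and 33.1 to 47.9 in dKO, and the ratio of Acot12 to Alb was 0.265 to 1.47 in UCP1 KO and 0.153 to 0.493 in dKO. It ran from 0.0297 to 0.0689 in WT and, overlapping with dKO, from 0.0151 to 0.171 in FGF21 KO, so that all 20 BAT libraries exceeded the median of liver. Here too the part of hepatocyte RNA was not tested.

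Acot11, the second thioesterase of WT BAT, was not called. It was at 847, 834, 481.5, 571 and 480 CPM in WT, at 658, 996, 1225, 621 and 266 CPM in UCP1 KO, at 672, 1039, 676, 634 and 572 CPM in FGF21 KO and at 780, 1319, 989, 308 and 1475 CPM in dKO. The 4 groups overlapped, and the log2 fold change of UCP1 KO against WT was 0.23 with a 95% interval of -0.49 to 0.95. The cytosolic Acot7 was at 16.8 to 22.2 CPM in WT and 10.7 to 17.6 CPM in UCP1 KO, with a log2 fold change of -0.42 ± 0.11 (adjusted p = 0.00468), and it was not called without FGF21 (-0.13 ± 0.11, adjusted p = 0.363). The call of Acot7 was lost with the skeletal muscle level as a covariate (adjusted p = 0.0159), with only WT and UCP1 KO in the fit (adjusted p = 0.0300), and without WT replicate 1, 3 or 4 or UCP1 KO replicate 3, 4 or 5 (adjusted p from 0.0101 to 0.0204). Acot1 was at 8.73, 8.74, 11.7, 8.94 and 23.5 CPM in WT BAT and at 25.5, 3.77, 3.97, 5.70 and 2.70 CPM in UCP1 KO, so that 1 library of each group stood far above the rest, and it was not called (-0.57 ± 0.49, adjusted p = 0.368).

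**Figure D4:**
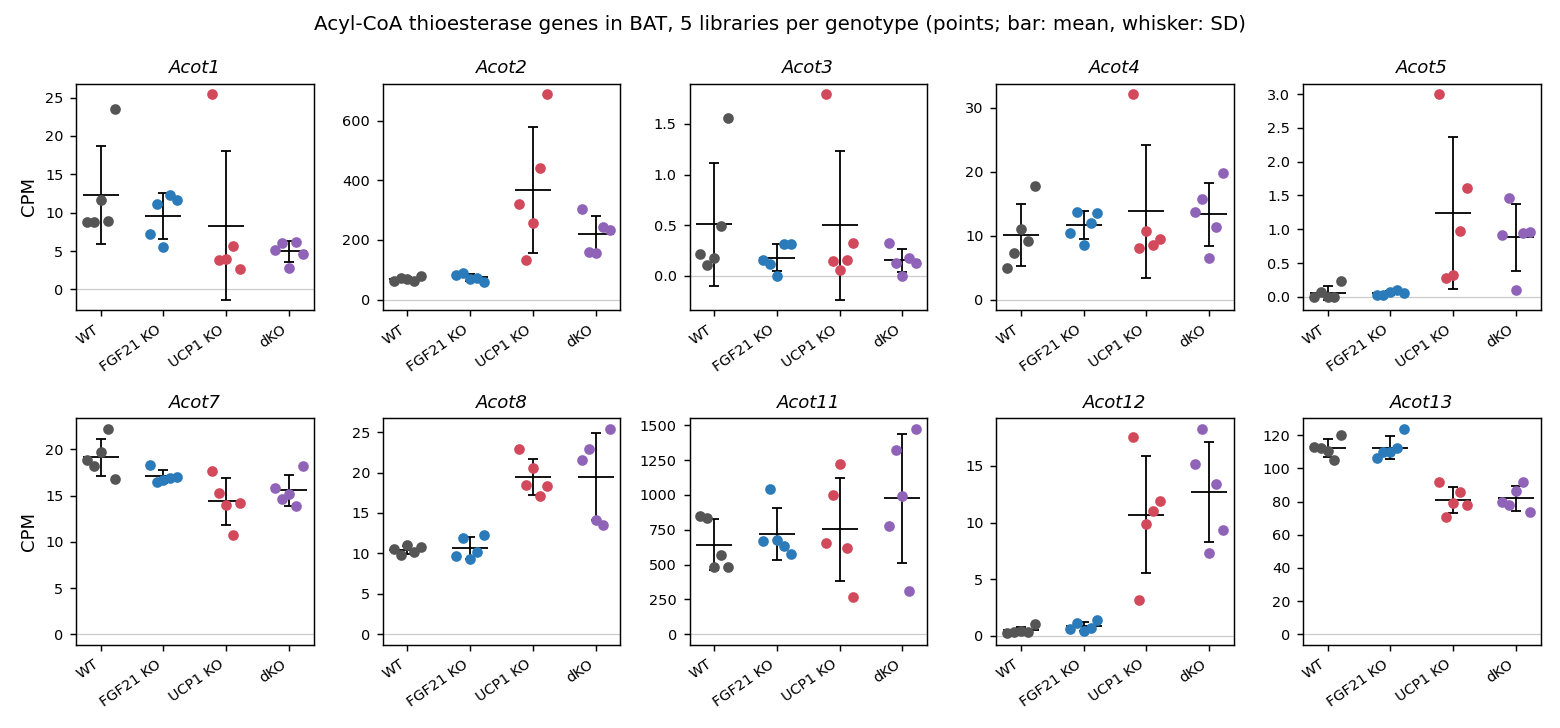
CPM of the 10 genes in BAT, with 1 point per library, 5 libraries per genotype, the mean as a bar and the SD as a whisker. Acot2, Acot8 and Acot12 are higher in both genotypes without UCP1, and Acot13 is lower (70.7 to 92.0 CPM against 105 to 124 CPM).

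In mice without UCP1, BAT levels with and without FGF21 were not called different for any of the 10 genes by edgeR or DESeq2 (UCP1 KO against dKO, 0.0636% of all genes called), with 1 at an unadjusted p under 0.05, as were 2035 of all 15729 genes. The 95% interval of the log2 difference was -0.29 to 0.28 for Acot8, -0.16 to 0.13 for Acot13, -0.996 to 0.496 for Acot12 and 0.18 to 1.31 for Acot2. Neither loss of FGF21 alone nor the interaction called any gene of the whole table in BAT (0% and 0%), and no thioesterase reached an unadjusted p under 0.05 in either, where 1345 and 845 of all genes did. DESeq2 called no thioesterase in either.

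**Figure D5:**
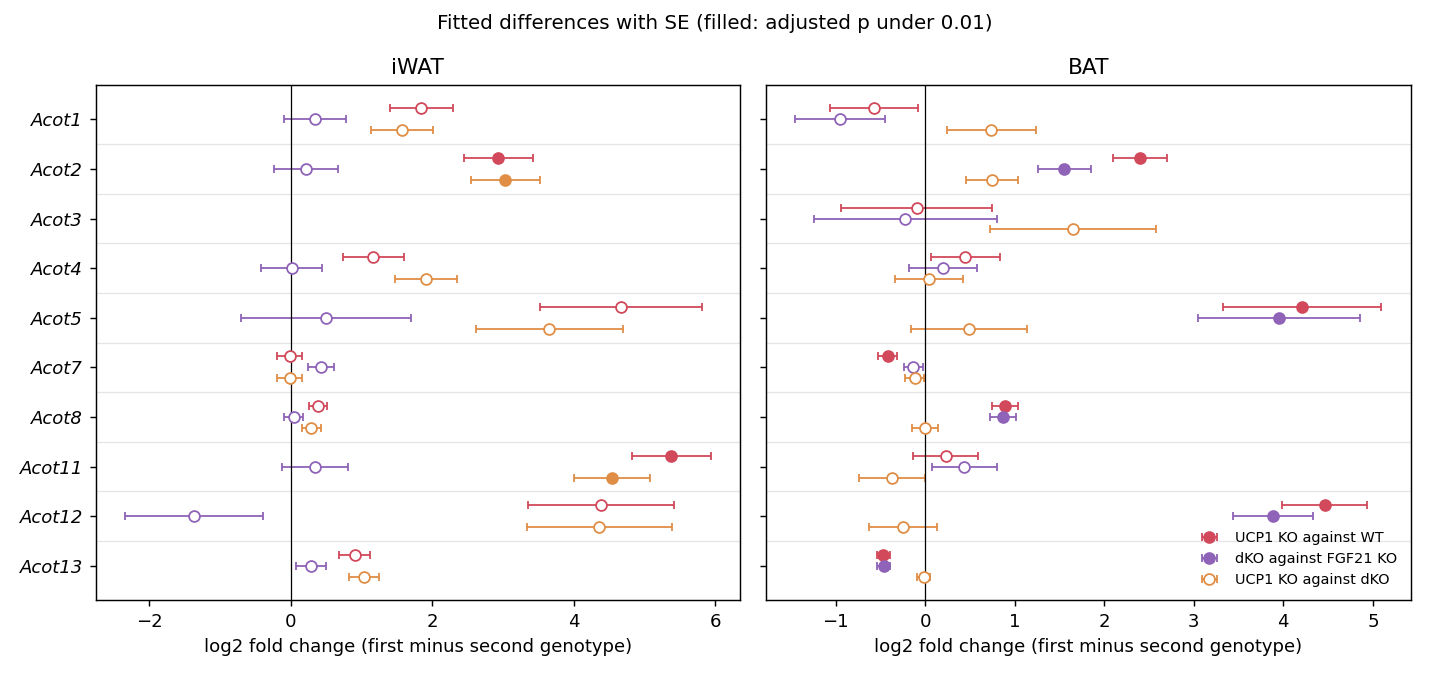
Log2 fold changes of the genes tested in iWAT and BAT with their SE, for UCP1 KO against WT, dKO against FGF21 KO and UCP1 KO against dKO. Filled points have an adjusted p under 0.01, and Acot11 is far from 0 in iWAT (5.38 and 4.55) but not in BAT.

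The response to loss of UCP1 was then compared between BAT and iWAT in one fit of both tissues. It differed for Acot11 (BAT minus iWAT -5.15 ± 0.65 on the log2 scale, adjusted p = 2.46e-06) and for Acot13 (-1.38 ± 0.21, adjusted p = 2.87e-05), 2 of the 9 genes tested, where 7.92% of all genes were called. The other 7 were not called, among them Acot2 (-0.53 ± 0.54, adjusted p = 0.556) and Acot1 (-2.402 ± 0.68, adjusted p = 0.0138), which was called without BAT UCP1 KO replicate 1 (-3.42, adjusted p = 5.45e-05). The difference between UCP1 KO and dKO was unequal in the tissues for Acot11 (-4.88 ± 0.65, adjusted p = 3.30e-05), Acot12 (-4.54 ± 1.02, adjusted p = 0.00618) and Acot13 (-1.03 ± 0.21, adjusted p = 0.00275), where 1.74% of all genes were called. Acot2 was close to the threshold there (-2.25 ± 0.55, adjusted p = 0.0121), and without iWAT UCP1 KO replicate 5 it was at -1.45 (adjusted p = 0.0706). The call of Acot12 was lost without any 1 of iWAT UCP1 KO replicates 3, 4 and 5, iWAT dKO replicates 1, 2, 3 and 5, BAT UCP1 KO replicates 2, 3, 4 and 5 and BAT dKO replicates 1 and 2 (adjusted p from 0.0111 to 0.0322). The call of Acot13 was lost without iWAT UCP1 KO replicate 5 (adjusted p = 0.0109). DESeq2 called Acot1 in the first of these comparisons and Acot2 in the second as well, and its shares of all genes are not given here.

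In liver and muscle no thioesterase was called in any comparison by edgeR or by DESeq2. In liver, with 9 genes tested, 0.340% of all genes were called over the 4 genotypes, 0.0694% for UCP1 KO against WT, 0.00694% for dKO against FGF21 KO, 0.00694% for UCP1 KO against dKO, 0.229% for FGF21 KO against WT and 0% for the interaction. The number of thioesterases at an unadjusted p under 0.05 was 1 for dKO against FGF21 KO, 1 for FGF21 KO against WT and 0 for the others, where 743 to 1669 of all 14407 genes were. Acot12 of liver was at 124 to 136 CPM in WT and 117 to 125 CPM in UCP1 KO, and the 95% interval of the log2 difference was -0.28 to 0.01. Acot11 of liver was at 7.29 to 8.85 CPM in WT and 8.75 to 17.1 CPM in FGF21 KO (0.74 ± 0.33, adjusted p = 0.625). In muscle, with 7 genes tested because Acot3, Acot5 and Acot12 had too few counts, 0.0860% of all genes were called over the 4 genotypes, 0.0265% for UCP1 KO against WT, 0.0595% for dKO against FGF21 KO, 0% for UCP1 KO against dKO, 0.00662% for FGF21 KO against WT and 0% for the interaction. Only the interaction had a thioesterase at an unadjusted p under 0.05, 1 of 7, as were 1131 of all 15114 genes. Muscle Acot13 was at 63.6 to 79.8 CPM in WT and 65.3 to 77.5 CPM in UCP1 KO, and the 95% interval was -0.15 to 0.14.

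Other genes of acyl-CoA handling are given for UCP1 KO against WT. In iWAT, where 0.610% of all genes were called, the median over the 9 members tested, of which Acot5 passed the filter only through UCP1 KO, was 1.84 against -0.03 over all genes. Acot5, at 4.67, raises this median by its selection. Without Acot5 the middle lies between Acot4 (1.16) and Acot1 (1.84). Of 25 PPAR alpha targets, all tested, 7 were higher and 0 lower (median 1.33), among them Cpt1b (3.76), Pdk4 (2.94) and Slc25a20 (2.01), which serve the entry of fatty acids and the sparing of glucose in mitochondria. Of 10 genes of CoA synthesis and CoA breakdown 2 were higher, Pank1 (2.64), the first enzyme of CoA synthesis, and Ppcs (1.11), and Coasy was at 1.27 (adjusted p = 0.0331). Of 16 acyl-CoA synthetases 1 was higher, Acsl5 (1.19), while Acss1 was at 1.48 (adjusted p = 0.0155) and Slc27a2 at 5.10 (adjusted p = 0.0196). None of 10 other thioesterases was called, with Them4 at 0.67, Acot6 at 0.64 and Mcat at 0.39, and none of 5 acyl-CoA binding proteins, with Acbd6 at 0.36, Acbd5 at 0.21 and Acbd3 at 0.17.

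In BAT, where 25.2% of all genes were called, the median over the 10 members, Acot5 included, was 0.34 against 0.01 over all genes. Without Acot5, which passed the filter only through the genotypes without UCP1, the middle value was that of Acot11, 0.23. Of 9 other thioesterases 3 were higher and 1 lower, with Acot6, a further gene of the chromosome 12 cluster, at 1.32, Ppt1 at 0.42 and Ppt2 at -0.44. Of 15 synthetases 3 were higher and 3 lower, with Acsl3 at 0.76, Acsl4 at 0.85 and Acsm5 at -1.85. Of 5 binding proteins 1, Dbi (-0.80), was lower, while Acbd5 (-0.35) and Acbd3 (0.24) were not called. Of 10 CoA genes 2 were higher and 1 lower, with Ppcs at 0.67, Coasy at 0.58 and Pank1 at -0.78. Of 25 PPAR alpha targets 5 were higher and 3 lower, with Cpt1a at 1.57, Plin2, a lipid droplet coat protein, at 1.40 and Acaa2 at -0.52.

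The members did not share one pattern over the 16 groups of tissue and genotype. Pearson correlations of mean log2 CPM were 0.93 for Acot1 with Acot3, 0.91 for Acot3 with Acot12, 0.88 for Acot4 with Acot8 and 0.85 for Acot2 with Acot11, and they reached -0.45 for Acot7 with Acot13. The genes of the whole table most like each member by this measure were Atp4b (0.989) and Dnajc11 (0.982) for Acot11, Hpdl (0.985) and Mtm1 (0.982) for Acot2, Ndufs6 (0.994) and Mipep (0.991) for Acot13, and Acox2 (0.991) and Tmem82 (0.983) for Acot12. They were Ehhadh (0.991) and Hsd17b4 (0.990) for Acot4, Hmox2 (0.978) and Sat1 (0.974) for Acot8, and Pik3r2 (0.958) and Irf2bp1 (0.954) for Acot7. For Acot1 they were Sirt3 (0.987) and Pank1 (0.983), for Acot3 Cpn2 (0.971) and Arhgef19 (0.971), and for Acot5 Tacr2 (0.980) and Dmrtc1a (0.977). These values describe 16 means that share libraries and tissue composition.

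Within a tissue, members were also correlated over its 20 libraries after each genotype's mean had been taken away, which leaves the spread between animals of one genotype. In liver, r was 0.86 for Acot3 with Acot4, 0.85 for Acot1 with Acot3 and 0.75 for Acot1 with Acot8. In BAT it was 0.84 for Acot1 with Acot4 and 0.79 for Acot1 with Acot3. In iWAT it was 0.90 for Acot4 with Acot13 and 0.82 for Acot2 with Acot13, in libraries that also differ in lymph node content, and in muscle 0.88 for Acot7 with Acot11. These are high pairs of each tissue. The lowest were -0.545 for Acot2 with Acot11 in BAT and -0.37 for Acot7 with Acot11 in iWAT. They were -0.26 for Acot11 with Acot13 in liver and -0.20 for Acot8 with Acot13 in muscle. Of the 25 PPAR alpha targets, the number with an r above 0.5 in iWAT was 18 for Acot4 and Acot13, 17 for Acot2 and Acot7, 8 for Acot1, 6 for Acot5, 2 for Acot12 and 0 for Acot8 and Acot11. In BAT it was 15 for Acot4, 14 for Acot1, 10 for Acot5, 9 for Acot12, 8 for Acot3, 7 for Acot8, 6 for Acot13, 2 for Acot11 and 1 for Acot2 and Acot7. In liver, with 24 of the targets tested, the number ran from 1 for Acot11 to 14 for Acot8. In muscle, also with 24, it ran from 0 for Acot8 to 12 for Acot4, with 11 for Acot11. The same was not computed over all genes. The points share library, depth and dissection, and the correlations are a description.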

How the data were processed

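Total RNA of iWAT, BAT, liver and muscle was selected for poly(A), made into stranded libraries and sequenced as paired reads of 100 bases. STAR, HTSeq and mm10 are named in the submitters' processing notes, and the deposited values are the authors' raw read counts per gene, 1 library per file. The strand setting of the counting was not given in the sources used here. Samples were grouped by the tissue and genotype of their labels. Labels do not link libraries of the same mouse, and p-values measure the spread between the 5 libraries of a group. No pair of libraries in a tissue had identical counts.

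A row naming no gene (0 to 15 counts per library) was left out. A gene entered a tissue's test if it exceeded 15 counts in some library and 75 over all, with 10 libraries or fewer at 0, which left 17380 genes (iWAT), 15729 (BAT), 14407 (liver) and 15114 (muscle). Counts were fitted with edgeR 4.0.16 (R 4.3.3, limma 3.58.1), TMM factors and the quasi-likelihood test, 1 mean per genotype, with Benjamini-Hochberg adjustment over all genes tested. The SE was derived from the fold change and its F value, and the 95% intervals of log2 differences rest on a normal approximation of it. They can be narrower than the test allows. In BAT that of Acot2 in the interaction was 0.04 to 1.65, although no thioesterase had an unadjusted p under 0.05 there. Single values were also compared by a two-sided exact permutation test on log2 CPM (prior count 2), whose smallest p for 5 against 5 is 0.00794. Alternatives were DESeq2 1.42.0, RLE factors, no filter, a threshold of 0.05, marker covariates, only the genotypes compared, and leaving out libraries. On simulated counts for UCP1 KO against WT in iWAT (17124 genes, 200 changed), 34% of 2-fold and 63% of 4-fold changes were called, with 2 wrong calls. The simulated counts varied independently between genes and held no lymph node or muscle signal, so these rates need not hold for the real libraries.

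All 10 members are named. Of each list of other genes, the 3 with the smallest adjusted p in UCP1 KO against WT are named. The members and lists were chosen with earlier results of these data known. Gene positions and lengths are from GENCODE, build GRCm38, and promoters from RefSeq.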

Additional observations from a re-analysis of the deposited data

Results flagged for a closer look

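In 20 of 140 groups of 5 libraries, 1 library stood further from the nearest other than Dixon's 95% limit allows. For independent and normally distributed values this happens in about 1 in 20 groups. CPM values were not shown to be normal and the groups share libraries, so an excess was not tested. Several of the outlying values came from the same libraries. BAT of UCP1 KO replicate 1 was the highest of its group for Acot1 (25.5 CPM, others 2.70 to 5.70), Acot3 (1.80, others 0.0611 to 0.327) and Acot4 (32.2, others 8.07 to 10.8), and 18 of 25 PPAR alpha targets were above the other 4 libraries in it, against 25.0% of all genes tested. Liver of UCP1 KO replicate 5 was the highest for Acot1 (24.9 CPM, others 3.24 to 8.40), Acot3 (2.47, others 0.0966 to 0.610) and Acot8 (14.8, others 8.65 to 9.50), with 16 of 25 targets above the others, against 27.5% of all genes. BAT of WT replicate 5 was the highest for Acot1 (23.5 CPM, others 8.73 to 11.7), Acot3 (1.56, others 0.105 to 0.488) and Acot12 (1.07, others 0.274 to 0.385), with 13 of 25 targets above the others, against 22.2% of all genes. The libraries were picked for these values, so the counts are descriptions.

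Acot2 was at 241 CPM in iWAT of UCP1 KO replicate 5, where the others were at 17.2 to 81.1 CPM. Acot12 was at 1.02 CPM in iWAT of FGF21 KO replicate 4, the library with the most Alb, where the others were at 0.0217 to 0.0772 CPM. In iWAT of FGF21 KO, Acot1 was at 0.869 CPM in replicate 5 and Acot13 at 26.6 CPM in replicate 2, the 1 library of that group with few lymph node transcripts. In BAT of FGF21 KO, Acot11 was at 1039 CPM in replicate 2 and Acot7 at 18.3 CPM in replicate 1. In liver, Acot12 was at 154 CPM in dKO replicate 1, Acot7 was lowest at 14.1 CPM in dKO replicate 2, and Acot13 was lowest at 31.1 CPM in FGF21 KO replicate 4. In muscle of UCP1 KO replicate 1, Acot13 was highest at 77.5 CPM and Acot7 lowest at 11.9 CPM.

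The response to loss of UCP1 differed between BAT and iWAT, by a test of the difference, for Acot11 (-5.15 on the log2 scale, BAT minus iWAT) and Acot13 (-1.38). The difference between UCP1 KO and dKO was unequal in the tissues for Acot11 (-4.88), Acot12 (-4.54) and Acot13 (-1.03).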

How the results depend on the processing

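Of the counts of thioesterases called, 707 recalculated values were within 1.5 times of the reported ones and 30 were not, nearly all of them in iWAT. For iWAT the counts over the 4 genotypes, for UCP1 KO against WT, for UCP1 KO against dKO and for the interaction (3, 2, 2 and 0 as reported) were 7, 6, 5 and 1 at a threshold of 0.05 and 7, 6, 5 and 3 with DESeq2. The same fits called 302, 106, 81 and 0 of all genes as reported, 876, 450, 404 and 1 at 0.05 and 1263, 597, 535 and 62 with DESeq2. Acot5 is among the 7 and the 6 at both settings, and among the 6 against WT without UCP1 KO replicate 2, and it passes the filter only through UCP1 KO, so that its calls are no support. With the lymph node level as a covariate the 4 genotypes gave 4 of the thioesterases and 771 of all genes. In the same fit UCP1 KO against WT gave 3 and 815, UCP1 KO against dKO 4 and 733, and the interaction 1 and 3. With only the genotypes compared in the fit, UCP1 KO against WT and against dKO gave 0 and 0, and 1 and 0 of all genes, in a fit of fewer libraries. Leaving out each library in turn gave 2 to 7 over the 4 genotypes, 1 to 6 for UCP1 KO against WT, 1 to 6 for UCP1 KO against dKO, 0 to 1 for the interaction, and 1 to 4 for the difference between BAT and iWAT in UCP1 KO against dKO. The highest counts, 7, 6 and 6, came without iWAT UCP1 KO replicate 2, the library with lymph node transcripts, and without FGF21 KO replicate 2 the count over the 4 genotypes was 6. Over all genes, leaving out each library gave 101 to 791, 16 to 360, 13 to 371 and 0 to 3 calls in the iWAT comparisons, with 676, 360 and 371 without UCP1 KO replicate 2 and 791 without FGF21 KO replicate 2. Of the 30 fold changes recalculated, those called or near the threshold, none turned its direction, 40 of their recalculated values lost a call and 35 gained one. In libraries of low lymph node level Acot11 of iWAT was 6.06 higher in UCP1 KO than in WT on the log2 scale, and with the skeletal muscle covariate the log2 fold change of Acot5 in BAT was 4.88 with FGF21 and 5.33 without it. Per-length levels used the union of exons, and with the longest transcript the levels of Acot1, Acot7 and Acot8 were higher in every tissue while Acot13 still led. No paired analysis was possible because the labels hold no replicate numbers that link libraries. Depth limits Acot3 and Acot5, with few or no counts in most libraries.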
